A study of Mus musculus with 10 samples.

Results

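The AP-1 and Egr immediate early factors are 10 genes chosen by symbol: Fos, Fosb and Fosl2, Jun, Junb and Jund, Egr1, Egr2 and Egr3, and Atf3. All 10 were found among the 55359 gene identifiers of the count files, and all 10 passed the filter on low counts. They were measured by bulk RNA-seq in F4/80+ macrophages sorted from the tumours of male mice, in 10 libraries. The 5 Ccr2 KO libraries (genotype Ccr2RFP/RFP) came from mice with an RFP allele on both copies of Ccr2, the chemokine receptor that brings inflammatory monocytes out of the bone marrow. The 5 control libraries (genotype Ccr2RFP/+) came from mice with the same RFP allele on a single copy, so the controls were heterozygous and not free of the RFP allele. All mice, Ccr2 KO and control, bore melanomas under daily Braf and Mek inhibitors, and all tumours carried the label resistant/rebound. The sources used here give neither age, tumour line nor the number of animals behind a library. Per the labels, fresh tumour was homogenized and stained, and the sorted cells went straight into a lysis reagent. Nothing in the labels ties a library to its own animal. The p-values therefore speak only of how far these libraries differ among themselves, which may be technical.

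AP-1 is a dimer of basic leucine zipper proteins, in which a Fos protein pairs with a Jun protein, or Jun proteins pair with each other or with ATF proteins such as Atf3. The Egr proteins bind GC-rich DNA through zinc fingers. Most of these genes are immediate early genes: growth factors, microbial products, stress and cell handling switch them on within minutes through ERK, JNK and p38 kinases, with no new protein needed, and their mRNAs decay quickly. In macrophages they act early in the response to inflammatory signals, and Egr factors also take part in monocyte and macrophage differentiation. Digestion and mechanical disruption of tissue are widely known to induce Fos, Jun and Egr1.

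No member passed the test between genotypes, and in all 10 members the lowest levels were those of libraries 4 and 5 of the Ccr2 KO genotype. Of the 10 factors, 9 had a log2 fold change (Ccr2 KO over control) below 0, with a median of -0.71, against a median of -0.003 over all 14374 genes tested and 50.5% of those below 0. With edgeR's quasi-likelihood test and Benjamini-Hochberg adjustment over all genes tested, 0 of 10 had an adjusted p under 0.05. In the same test 0.543% of all genes were called lower and 0.87% higher in Ccr2 KO libraries. At an unadjusted p under 0.05, 2 of 10 were lower, Junb and Fos, against 7.28% of all genes, and 0 were higher, against 8.05%. An adjusted p under 0.1 was reached by 0 of 10, against 1.2% of all genes lower and 1.89% higher. DESeq2 also called 0 of 10 (2.51% of all genes lower, 3.21% higher), with 3 at an unadjusted p under 0.05 against 8.06% of all genes. Limma-voom with sample weights called 0 (1.25% lower, 1.86% higher), with 7 under an unadjusted 0.05 against 11.5%. The groups overlapped in all 10 members, whereas they did not overlap in 4.7% of all genes. These p-values do not show that the genotypes were alike, since the standard errors of the log2 fold changes ran from 0.30 for Egr2 to 0.77 for Egr3. In these bulk samples, fewer cells with a transcript and less of it per cell cannot be told apart.

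Ccr2 KO libraries 4 and 5 held the lowest levels of the 10 libraries in all 10 members. The same was true of 7.03% of all genes tested. Ccr2 KO library 4 was the lowest in 6 members and library 5 in 4. At the other end, control library 5 was the highest in 8 members, the exceptions being Egr2 and Egr3, against 10.8% of all genes. Summed over the 10 factors, Ccr2 KO libraries 4 and 5 held 1606 and 1511 CPM (counts scaled to TMM-adjusted library size), and Ccr2 KO libraries 1 to 3 held 4580, 5552 and 5302 CPM. Control libraries 1 to 4 held 4935 to 5943 CPM and control library 5 held 10439 CPM. In this sum, which Fos, Junb and Jun dominate, Ccr2 KO libraries 2 and 3 lay among control libraries 1 to 4. Ccr2 KO library 1 lay somewhat under the lowest control, and libraries 4 and 5 far under every control. Gene by gene, Ccr2 KO libraries 1 to 3 all lay inside the control range in only 2 of 10 members, Fosb and Fosl2. Ccr2 KO libraries 4 and 5 and control library 5 were picked out as extremes after the values were seen.

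**Figure D1:**
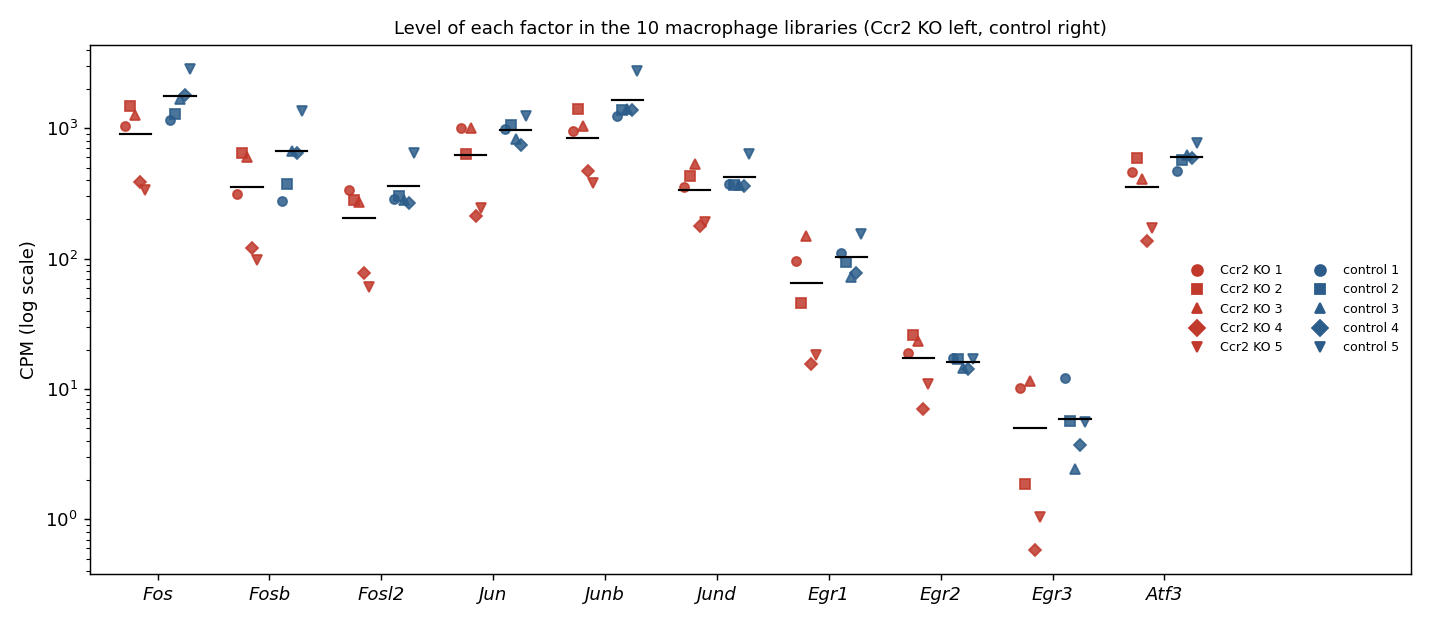
CPM on a log axis of each of the 10 factors in each library, with Ccr2 KO in red on the left and control in blue on the right; marker shapes give the library number and black lines the mean of 5 libraries. The diamonds and down-pointing triangles of Ccr2 KO libraries 4 and 5 lie lowest in all 10 genes, and the groups overlap in all 10.

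The 3 Fos genes encode proteins that cannot pair with each other and need a Jun partner to bind DNA. Fos itself (ENSMUSG00000021250) had 1041, 1495, 1259.5, 389.6 and 337 CPM in Ccr2 KO libraries 1 to 5, against 1156, 1298, 1668, 1799.5 and 2865 CPM in control libraries 1 to 5. Ccr2 KO libraries 2 and 3 lay inside the control range and the other 3 below it. The means were 904 ± 519.9 and 1757 ± 673 CPM (SD, n = 5 each); the log2 fold change was -0.96 (SE 0.42, edgeR adjusted p = 0.315). Fosb (ENSMUSG00000003545), a close relative whose shortened splice form is long-lived, had 313, 649, 602, 121 and 97.3 CPM in Ccr2 KO libraries, against 276, 372, 675, 649 and 1363 CPM in control libraries. Here Ccr2 KO libraries 1 to 3 all lay within the control range (log2 fold change -0.90, SE 0.58, edgeR adjusted p = 0.478). Fosl2 (ENSMUSG00000029135), which encodes Fra-2, had 334, 283, 270.4, 77.4 and 60.5 CPM in Ccr2 KO libraries, against 288, 300.2, 284, 268 and 649 CPM in control libraries. Again only Ccr2 KO libraries 4 and 5 lay under the lowest control (log2 fold change -0.80, SE 0.47, edgeR adjusted p = 0.441).

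The Jun genes supply the obligate partners of Fos and also form dimers among themselves. Jun (ENSMUSG00000052684), the target of JNK kinases, had 1003, 635, 1006, 214 and 246 CPM in Ccr2 KO libraries, against 982, 1063, 827, 738 and 1234 CPM in control libraries. Ccr2 KO libraries 1 and 3 were inside the control range, library 2 was under it and libraries 4 and 5 were far under it (log2 fold change -0.64, SE 0.41, edgeR adjusted p = 0.480). Junb (ENSMUSG00000052837), which limits Jun activity in many settings, had 948, 1395, 1039, 469 and 379 CPM in Ccr2 KO libraries, against 1249.5, 1386, 1418, 1381 and 2756 CPM in control libraries. It was the member with the smallest p: the means were 846 ± 421 and 1638 ± 628 CPM (SD, n = 5 each), and edgeR gave -0.95 on the log2 scale with SE 0.36, unadjusted p = 0.0230 and adjusted p = 0.239. Only Ccr2 KO library 2 reached the control range. Jund (ENSMUSG00000071076), the least inducible Jun gene, had 352, 434, 536, 177 and 191 CPM in Ccr2 KO libraries, against 376, 369, 365, 362 and 629.6 CPM in control libraries (log2 fold change -0.31, SE 0.31, edgeR adjusted p = 0.655). Ccr2 KO libraries 2 and 3 exceeded all controls but library 5, so Jund overlapped widely. Counted without strand, Jund kept between 29.99% and 33.8% of its reads and Jun between 87.9% and 88.9%, while every other member kept at least 99.2%. The levels of Jund and Jun therefore depend on the strand-specific count used here.

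Egr1 is the fastest and most widely induced Egr gene, while Egr2 and Egr3 are partly its targets. Egr1 (ENSMUSG00000038418) had 96.5, 45.7, 148, 15.7 and 18.3 CPM in Ccr2 KO libraries, against 111, 93.7, 72.8, 77.6 and 156 CPM in control libraries. Ccr2 KO libraries thus spanned 9.46-fold and controls 2.14-fold (log2 fold change -0.66, SE 0.56, edgeR adjusted p = 0.601). Egr2 (ENSMUSG00000037868) had 18.8, 25.8, 23.5, 7.07 and 11.01 CPM in Ccr2 KO libraries, against 17.4, 17.02, 14.4, 14.3 and 16.95 CPM in control libraries. No Ccr2 KO library fell inside this narrow control range: libraries 1 to 3 lay above it and libraries 4 and 5 below it. A split of that kind, with all Ccr2 KO libraries outside the control range on both sides, occurred in 3.85% of all genes. The means were 17.2 ± 8.03 and 16.03 ± 1.53 CPM (SD, n = 5 each), with a log2 fold change of 0.10 (SE 0.30, edgeR adjusted p = 0.893). Egr3 (ENSMUSG00000033730) was the scarcest member, with 10.2, 1.85, 11.5, 0.587 and 1.04 CPM in Ccr2 KO libraries, against 12.1, 5.71, 2.43, 3.71 and 5.64 CPM in control libraries. Its lowest value rested on 24 reads and its highest Ccr2 KO values on 463 and 452 reads (log2 fold change -0.24, SE 0.77, edgeR adjusted p = 0.908).

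Atf3 is a stress-induced member of the ATF family that restrains inflammatory genes in macrophages. Atf3 (ENSMUSG00000026628) had 463, 588, 406, 136 and 171 CPM in Ccr2 KO libraries, against 467, 574, 619, 588 and 764 CPM in control libraries. Ccr2 KO library 2 alone lay within the control range, libraries 1 and 3 under it, and libraries 4 and 5 far under it. The means were 352 ± 194 and 602 ± 107 CPM (SD, n = 5 each), and the log2 fold change was -0.77 (SE 0.36, unadjusted p = 0.0561, edgeR adjusted p = 0.339).

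**Figure D2:**
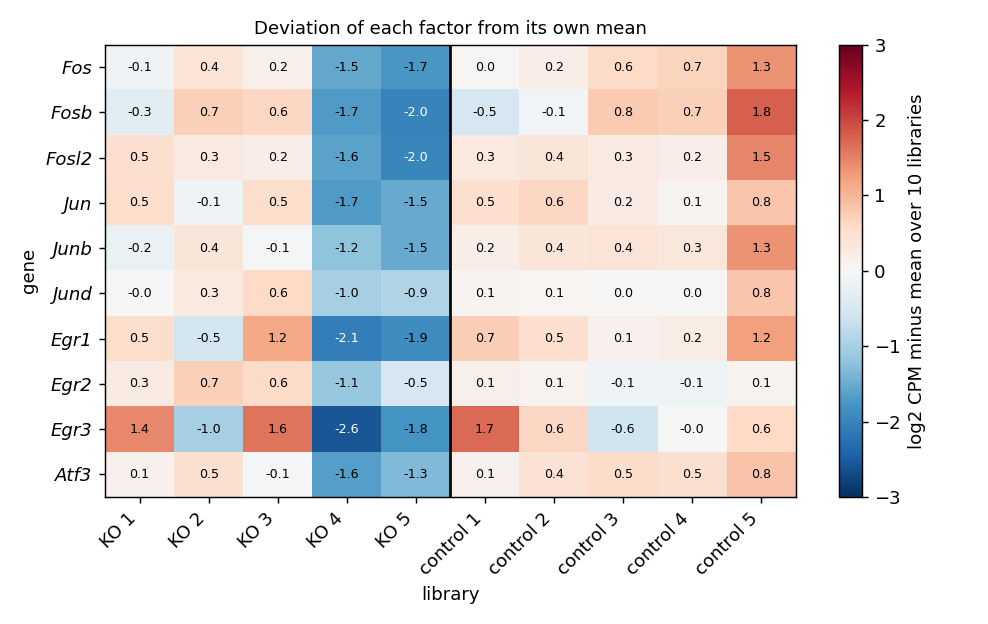
Log2 CPM of each factor minus its mean over the 10 libraries, with Ccr2 KO libraries left of the black line and control libraries right of it; red is above and blue below the gene's own mean. The columns of Ccr2 KO libraries 4 and 5 are blue in all 10 rows, and the median of the 10 factors there is -1.62 and -1.63.

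Some of the upstream regions of these genes hold sequences known as binding sites of such factors. Windows of 300 bases, from 250 before to 50 after the transcription start, were available from RefSeq on GRCm38.p6 for 8 of the 10 members. Shown are a Fos, a Jun, an ATF and an Egr gene, each 5′ to 3′ on the strand of the gene, with the motifs searched in capitals. They are Fos (chr12:85473640-85473939, plus strand), Jun (chr4:95052173-95052472, minus strand), Atf3 (chr1:191183284-191183583, minus strand) and a start site of Egr2 (chr10:67537619-67537918, plus strand), which was picked from 5 annotated windows because it holds a match.
Fos: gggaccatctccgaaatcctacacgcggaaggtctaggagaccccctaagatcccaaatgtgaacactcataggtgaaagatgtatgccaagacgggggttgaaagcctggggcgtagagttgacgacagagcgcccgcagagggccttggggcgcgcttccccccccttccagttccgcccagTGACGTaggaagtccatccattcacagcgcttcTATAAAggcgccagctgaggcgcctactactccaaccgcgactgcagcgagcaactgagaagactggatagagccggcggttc
Jun: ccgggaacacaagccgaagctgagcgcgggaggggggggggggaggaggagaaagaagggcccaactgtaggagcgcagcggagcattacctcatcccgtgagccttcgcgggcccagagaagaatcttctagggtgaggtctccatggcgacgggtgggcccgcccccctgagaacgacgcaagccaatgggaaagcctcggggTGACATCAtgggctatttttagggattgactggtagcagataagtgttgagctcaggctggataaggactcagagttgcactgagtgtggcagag
Atf3: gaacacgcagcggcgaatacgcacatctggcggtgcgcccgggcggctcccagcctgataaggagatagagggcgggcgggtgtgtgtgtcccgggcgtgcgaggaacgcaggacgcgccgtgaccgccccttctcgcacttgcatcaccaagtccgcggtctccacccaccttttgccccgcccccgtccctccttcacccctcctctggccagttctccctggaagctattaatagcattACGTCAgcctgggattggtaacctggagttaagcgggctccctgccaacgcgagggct
Egr2: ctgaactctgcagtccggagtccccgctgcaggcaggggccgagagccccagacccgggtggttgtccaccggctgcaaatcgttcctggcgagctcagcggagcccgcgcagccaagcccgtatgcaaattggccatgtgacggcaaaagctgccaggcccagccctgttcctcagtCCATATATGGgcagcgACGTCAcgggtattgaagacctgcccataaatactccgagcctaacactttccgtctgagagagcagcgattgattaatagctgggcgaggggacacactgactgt
The capitals mark TGACGT and TATAAA in Fos, TGACATCA in Jun, TGACGT read on the opposite strand in Atf3, and the CArG box and TGACGT on the opposite strand in Egr2. TGACGT is the core of the cyclic AMP response element that ATF and CREB proteins bind. TGACATCA is known as the site through which Jun binds its own promoter, and the CArG box is the site of serum response factor. Each motif was searched on both strands of all 32851 such windows of the genome. TGACGT was present in 7.51% of them, TGACATCA in 3.62%, the CArG box in 1.63% and TATAAA in 13.6%. The full element TGACGTCA (1.79% of windows, and containing TGACGT) and the AP-1 site TGANTCA (7.81%) had no match in the windows of the 8 members. The Egr site GCGGGGGCG (2.91%) matched in the windows of Fosb and Fosl2. Junb matched TATAAA only, and Jund matched none of the motifs. TGACGT and TGACATCA were added to the search after the sequences had been seen. A match is a description of these letters and no sign that a factor was bound.

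Per kilobase of merged exons, the factors spanned a wide range of abundance. Fos and Junb stood highest, at 385 ± 221 and 368 ± 183 CPM per kb in Ccr2 KO libraries and at 747 ± 286 and 712 ± 273 CPM per kb in control libraries (SD, n = 5 each). In either genotype these levels lay within each other's spread. Next in Ccr2 KO libraries came Jund (203 ± 93.0), Jun (195 ± 122) and Atf3 (164 ± 90.02), again within each other's spread. In control libraries Jun (304 ± 61.3), Atf3 (279.7 ± 49.7) and Jund (252 ± 70.3 CPM per kb) also lay within each other's spread, in another order. Fosb (57.1 ± 41.7 in Ccr2 KO and 107 ± 68.2 CPM per kb in control libraries) and Fosl2 (21.2 ± 13.1 and 36.97 ± 16.9) came lower. The Egr genes were lowest, with Egr1 at 14.5 ± 12.7 and 22.8 ± 7.45, Egr2 at 5.07 ± 2.36 and 4.72 ± 0.450, and Egr3 at 1.14 ± 1.21 and 1.34 ± 0.847 CPM per kb in Ccr2 KO and control libraries. Exon lengths came from GENCODE M21, an annotation other than the one behind the counts, so these levels are approximate.

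The factors varied more between libraries of the same genotype than most genes did, above all within Ccr2 KO. The median SD of log2 CPM over the 10 factors was 1.04 among Ccr2 KO libraries, against a median of 0.303 over all genes tested there. Among control libraries it was 0.452, against 0.239 over all genes. Egr3 varied most in Ccr2 KO libraries, with an SD of 1.895 (above 98.9% of genes), followed by Egr1 with 1.43 (96.8%) and Fosb with 1.28 (95.5%). Jund varied least there, with 0.714 (84.3%). Among controls Fosb (0.887) and Egr3 (0.852) varied most, while Egr2, with 0.140, varied less than most genes (percentile 26.8).

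Without Ccr2 KO libraries 4 and 5, edgeR again called 0 of 10, where 0.14% of all genes were called lower and 0.194% higher. These libraries were picked from the values and were the lowest in all 10 members. Leaving them out was therefore bound to raise every fold change, and the size of the shift is given as a description. The log2 fold change of Fos then was -0.46, of Junb -0.53, of Atf3 -0.30, of Fosb -0.35, of Fosl2 -0.26 and of Jun -0.12. Jund turned to 0.079 and Egr3 to 0.42, and Egr1 came to -0.06. Egr2 had 0.51 with SE 0.13 in that comparison (unadjusted p = 0.00361, edgeR adjusted p = 0.181), the smallest p of any member there. For Egr2 the libraries left out were those under the control range, and Ccr2 KO libraries 1 to 3 lay above it. The p-value thus follows from that choice and carries no support of its own. Leaving out control library 5 alone gave -0.46 for Fosb, -0.46 for Fosl2, -0.70 for Fos and -0.67 for Junb. With all 3 of these libraries left out, an alternative chosen after seeing the data, Fosb (0.086), Fosl2 (0.067), Jund (0.27) and Egr1 (0.13) had positive values. Fos (-0.22), Junb (-0.26), Jun (-0.02) and Atf3 (-0.20) stayed below 0, and 0 of 10 were called (0.088% of all genes lower, 0.19% higher). With control libraries 1 and 2, and 3 and 4, each summed as a single library because they were closer to each other than any other pair, 0 of 10 were called as well (0.114% lower, 0.0805% higher).

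**Figure D3:**
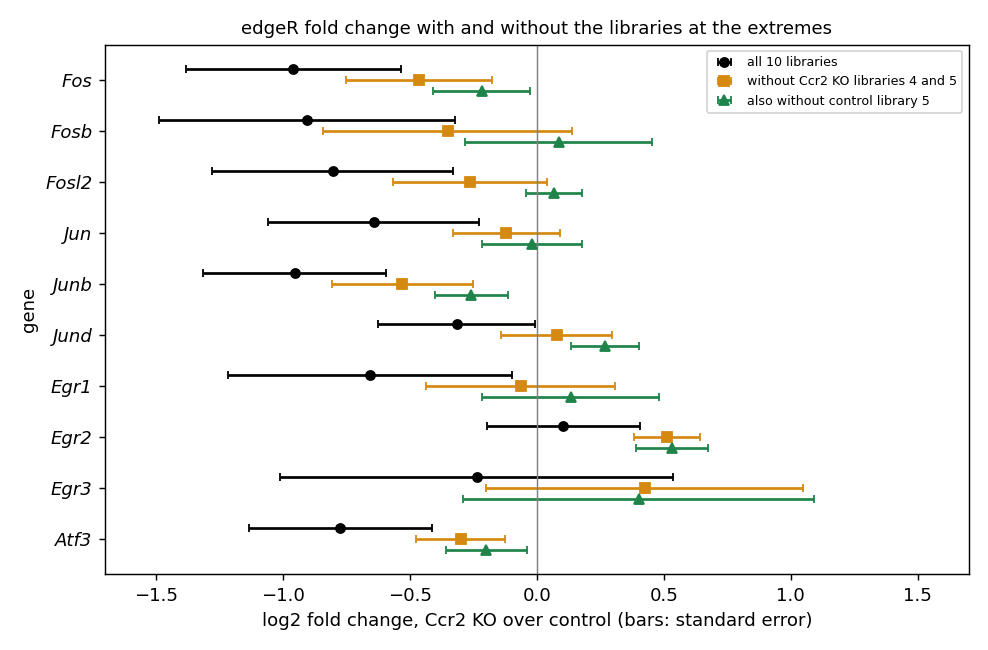
Log2 fold change (Ccr2 KO over control, edgeR) of each factor with its standard error, from all 10 libraries, without Ccr2 KO libraries 4 and 5, and without control library 5 as well. Fos is at -0.96, -0.46 and -0.22 in these fits and Jund at -0.31, 0.079 and 0.27.

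Ratios between factors within a library do not depend on how libraries are scaled, and most did not separate the genotypes. Of 8 log2 ratios of CPM, 7 overlapped between the groups and 1 did not, that of Jund over Junb. Jund over Junb was -1.43, -1.69, -0.96, -1.41 and -0.99 in Ccr2 KO libraries 1 to 5, against -1.73, -1.91, -1.96, -1.93 and -2.13 in control libraries 1 to 5. Jund was thus the scarcer mRNA in all 10 libraries, but less so in each Ccr2 KO library, including libraries 1 to 3. The nearest values across the genotypes were those of Ccr2 KO library 2 and control library 1. Set against the background, the ratio over Junb was higher in every Ccr2 KO library than in any control for 12.1% of 14172 genes, so Jund was far from alone in this. Counted without strand, the ratio ran from -3.42 to -2.54 in Ccr2 KO and from -3.72 to -3.42 in control libraries, with no overlap but almost no gap. The ratio of Fosb over Fos averaged -1.50 ± 0.34 and -1.54 ± 0.40, and that of Fosl2 over Fos -2.21 ± 0.33 and -2.31 ± 0.32, in Ccr2 KO and control libraries (SD, n = 5 each). Atf3 over Fos averaged -1.33 ± 0.26 and -1.49 ± 0.28. Fos over Jun ran from 0.05 to 1.24 in Ccr2 KO libraries and from 0.23 to 1.29 in control libraries. Junb over Jun ran from -0.08 to 1.14 in Ccr2 KO libraries and from 0.35 to 1.16 in control libraries, and Egr3 over Egr1 from -4.74 to -3.25 and from -4.91 to -3.20. Egr2 over Egr1 was -2.36, -0.82, -2.66, -1.15 and -0.73 in Ccr2 KO libraries, against -3.20 to -2.34 in control libraries. Ccr2 KO libraries 2, 4 and 5 stood above all controls in this ratio and libraries 1 and 3 did not.

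**Figure D4:**
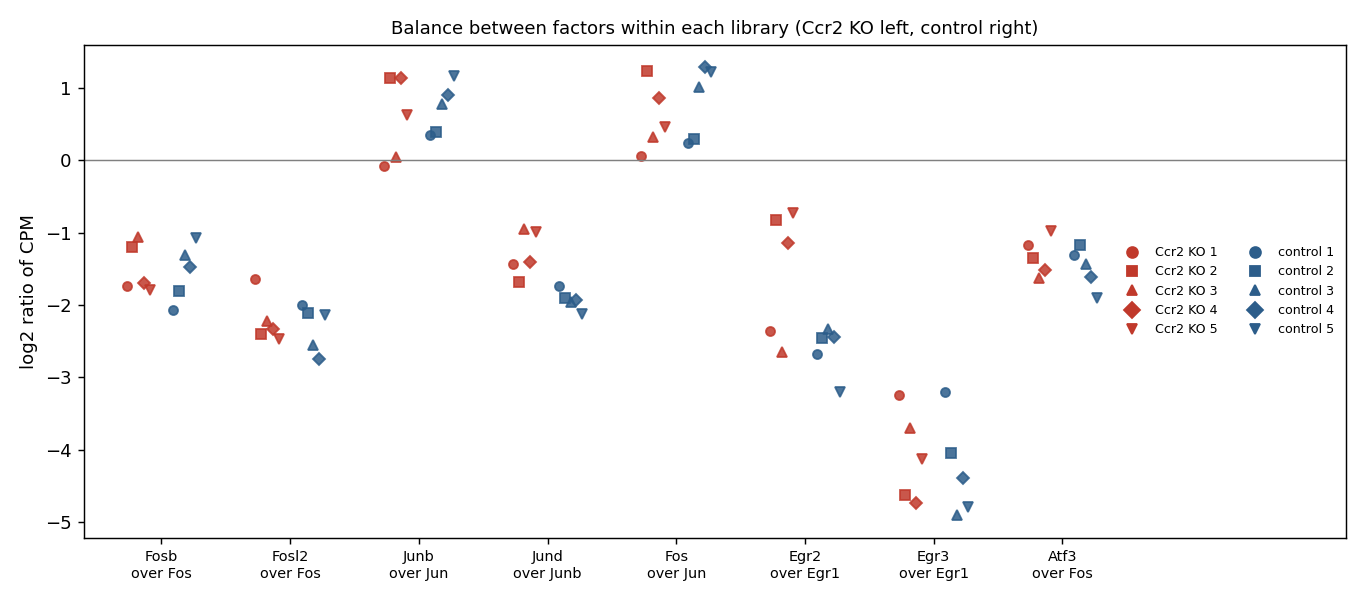
Log2 ratio of CPM between pairs of factors in each library, with Ccr2 KO in red on the left and control in blue on the right; marker shapes give the library number. Jund over Junb is the only ratio of the 8 whose groups do not overlap.

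Of other genes of the same families and of the early response, edgeR called none. Of 17 further AP-1 and Egr relatives, 16 were tested (Egr4 had at most 2 counts in any library), and 0 passed in either direction, with 2 at an unadjusted p under 0.05 and a median log2 fold change of -0.18. Of these 16, 6 were lowest in Ccr2 KO libraries 4 and 5, against 7.03% of all genes. Control library 5 was the highest in 3 of the 16, against 10.8% of all genes. Without Ccr2 KO libraries 4 and 5 the median of the 16 was 0.005. Batf, which pairs with Jun in lymphocytes and dendritic cells, was at 18.9 ± 1.33 and 29.9 ± 8.43 CPM in Ccr2 KO and control libraries (log2 fold change -0.67, edgeR adjusted p = 0.0936), and was the single gene of these that DESeq2 called (adjusted p = 0.0139). Atf6, the sensor of endoplasmic reticulum stress, had a log2 fold change of -0.35, the small Maf gene Maff of -0.86 and Maf itself of 0.19 (edgeR adjusted p = 0.268, 0.369 and 0.413). Of 37 other immediate early genes, 35 had a log2 fold change below 0, with a median of -0.65. None of the 37 passed with edgeR, 7 had an unadjusted p under 0.05, and 1 passed with DESeq2. That gene was Dusp2, a nuclear MAP kinase phosphatase, at 29.6 ± 23.1 and 93.6 ± 21.6 CPM in Ccr2 KO and control libraries (edgeR adjusted p = 0.160, DESeq2 adjusted p = 0.0190). Gadd45b had a log2 fold change of -1.08, Zfp36l2 of -0.42 and Btg2 of -1.02 (edgeR adjusted p = 0.226, 0.242 and 0.264). In 32 of the 37 the lowest levels were those of Ccr2 KO libraries 4 and 5, and control library 5 the highest in 26. Without Ccr2 KO libraries 4 and 5 the median of the 37 was -0.18 and again 0 passed.

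The genes that feed the early response had fold changes on both sides of 0. Of 21 kinases and serum response factors, 0 passed with edgeR and 0 with DESeq2, 1 had an unadjusted p under 0.05 with each, and the median log2 fold change was 0.003. Mrtfb, a coactivator of serum response factor, had 15.5 ± 1.79 and 12.6 ± 1.62 CPM in Ccr2 KO and control libraries (log2 fold change 0.30, edgeR adjusted p = 0.292). The ERK gene Mapk3 had 0.24, the kinase gene Map3k8 -0.51 and Map3k1 -0.33 (edgeR adjusted p = 0.344, 0.380 and 0.395). Of these 21, 2 had their lowest levels in Ccr2 KO libraries 4 and 5, against 7.03% of all genes. The summed level of the 21 was 1559 to 1663 CPM in Ccr2 KO and 1592 to 1687 CPM in control libraries. The Egr corepressor genes Nab1 and Nab2 had log2 fold changes of -0.11 and 0.07 (edgeR adjusted p = 0.869 and 0.783).

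Inflammatory genes known to carry AP-1 or early-response control were tested as a list of their own. Of 18 tested, 16 had a log2 fold change below 0, with a median of -0.94. With edgeR 0 passed, with 4 at an unadjusted p under 0.05, and DESeq2 called 1. That was Thbs1, the gene of thrombospondin, at 219 ± 171 and 1034 ± 594 CPM in Ccr2 KO and control libraries (log2 fold change -2.24, edgeR adjusted p = 0.0947, DESeq2 adjusted p = 0.0115). Il1b, the gene of interleukin-1 beta, had 343 ± 271 and 1101 ± 458 CPM, and Osm 91.6 ± 65.4 and 250.5 ± 129.9 CPM (edgeR adjusted p = 0.281 and 0.268). Mmp9 had 9.58, 0.963, 11.7, 3.62 and 7.54 CPM in Ccr2 KO libraries 1 to 5, against 16.1, 12.9, 2.63, 12.2 and 98.5 CPM in control libraries 1 to 5 (edgeR adjusted p = 0.298). Control library 5 stood far above every other library in Mmp9, and the other libraries of both genotypes overlapped. Tnf, by contrast, had 124 ± 72.9 and 112 ± 27.3 CPM. The lowest levels of 14 of the 18 were in Ccr2 KO libraries 4 and 5, with control library 5 highest in 8. Without Ccr2 KO libraries 4 and 5 the median of the 18 was -0.45, with 13 below 0, 6 at an unadjusted p under 0.05 and 0 called.

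Heat shock genes, which tissue handling can also induce, shared the low end of this pattern and not the high end. All 12 had a log2 fold change below 0, with a median of -0.60. None passed with edgeR, 6 had an unadjusted p under 0.05, and DESeq2 called Hspa8 (log2 fold change -0.45, edgeR adjusted p = 0.137, DESeq2 adjusted p = 0.0477). Dnajb1 had a log2 fold change of -0.71, Hspb1 of -1.83 and Hsph1 of -0.93 (edgeR adjusted p = 0.222, 0.252 and 0.284). In 9 of 12 they were lowest in Ccr2 KO libraries 4 and 5. Without those libraries the median was -0.31, with 10 of 12 below 0, 0 at an unadjusted p under 0.05 and 0 called. The summed level of the 12 was 4371, 4314, 3922, 3179 and 2960 CPM in Ccr2 KO libraries 1 to 5, against 6391, 7078, 4547, 4127 and 4105 CPM in control libraries 1 to 5. Control libraries 1 and 2 were thus the highest here, and control library 5, the highest for the AP-1 factors, was the lowest control. The part of tissue handling in the level of the factors was not tested, and no time or temperature of handling is given per library.

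**Figure D5:**
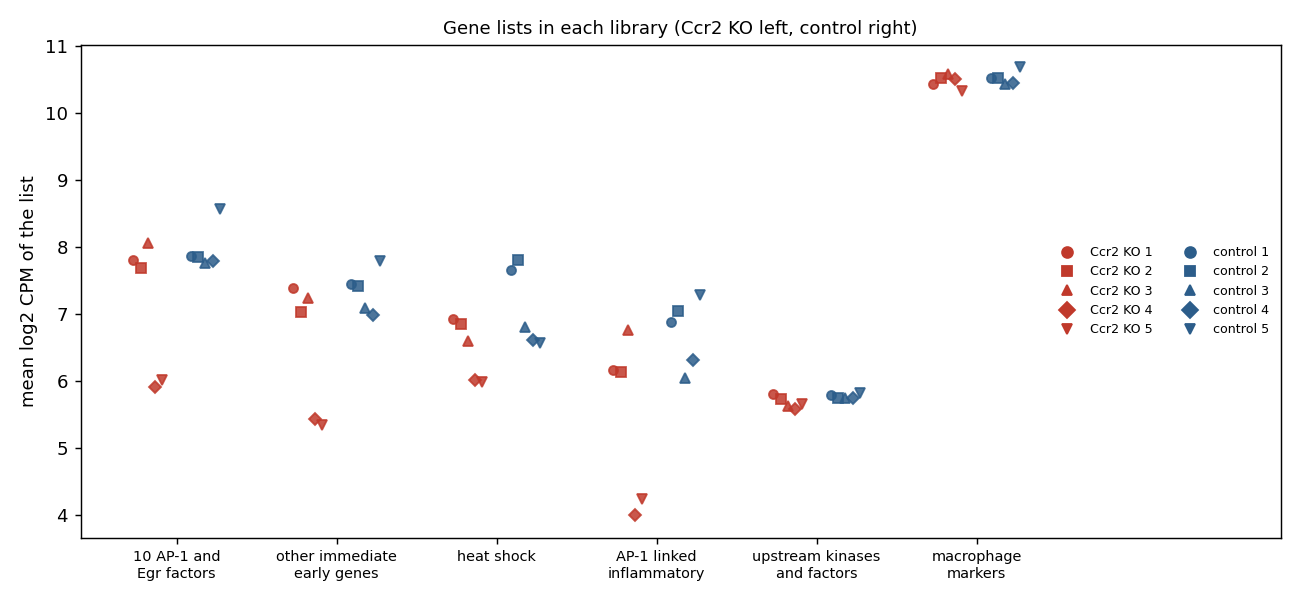
Mean log2 CPM of the 10 factors, of the related lists and of macrophage markers in each library, with Ccr2 KO in red on the left and control in blue on the right; marker shapes give the library number. Ccr2 KO libraries 4 and 5 lie at 5.91 and 6.02 for the 10 factors, against 7.69 to 8.06 in the other Ccr2 KO libraries, and at 10.51 and 10.32 for macrophage markers.

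The genes nearest to the factors across the 10 libraries were Cd14, Maff, Nfkbia, Dusp1, Pde4b and Ets2. Likeness was the mean absolute difference between a gene's log2 CPM, centred on its own mean, and the median profile of the 10 factors, over 8552 other genes averaging 10 CPM or more. The measure was 0.131 for Cd14, the co-receptor for bacterial lipopolysaccharide and 1 of the 12 macrophage markers. It was 0.139 for Maff and 0.149 and 0.152 for Nfkbia and Dusp1, an NF-kB inhibitor gene and a MAP kinase phosphatase gene of the 37 other early genes. It was 0.186 for the phosphodiesterase gene Pde4b and 0.187 for the Ets factor gene Ets2, which are in none of the lists. The median over all these genes was 0.671. Of the members, Fosl2 (0.166) and Jun (0.195) lay closest to the shared profile, and Egr3 (0.800) and Fosb (0.435) farthest from it. Cd14 had 690.2 ± 380 CPM in Ccr2 KO and 1113 ± 467 CPM in control libraries. These genes share their libraries and depth with the factors, and the measure describes these 10 libraries only.

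Libraries held between 34639808 and 43360206 counts in genes, and Ccr2 KO libraries 4 and 5, with 42140054 and 37660479, were within the range of the others. Ccr2, the altered gene, had 4.72 ± 1.41 and 119 ± 45.9 CPM in Ccr2 KO and control libraries, with no overlap (log2 fold change -4.66, edgeR adjusted p = 0.000139), so each library matched its label. Macrophage markers were abundant throughout, with Adgre1, which encodes F4/80, at 1836 ± 189 and 1826 ± 114 CPM and 12 markers summing to 31401 to 39244 CPM in Ccr2 KO and 29552 to 36140 CPM in control libraries. Of these 12 markers, 1 was called higher in Ccr2 KO libraries and 0 lower. Of 11 classical monocyte genes, 7 were called lower, including Ccr2, and 0 higher. F13a1 and Fn1 had log2 fold changes of 0.56 and 0.15, and Vcan and Hp of -1.40 and -3.25 (edgeR adjusted p = 0.380, 0.869, 0.232 and 0.115). The 11 summed to 2670 to 5220 CPM, median 4145, in Ccr2 KO libraries and 3120 to 7757 CPM, median 3245, in control libraries. Fn1 and F13a1 made up most of this sum in every library. The mean log2 CPM of the 11 monocyte genes was 2.70 to 4.34 in Ccr2 KO and 6.09 to 7.215 in control libraries, with no overlap. Of the markers of other cells tested, edgeR called 0 of 7 neutrophil, 0 of 10 fibroblast, 0 of 9 dendritic cell and 0 of 6 endothelial genes. At an unadjusted p under 0.05 with edgeR these counts were 3, 0, 3 and 1, all lower in Ccr2 KO libraries, against 7.28% of all genes. DESeq2 called 2, 0, 1 and 1, again all lower, against 2.51% of all genes. Neutrophil markers summed to 113 to 209.8 CPM in Ccr2 KO and 159 to 518 CPM in control libraries. Csf3r alone gave 109, 109, 75.6, 129 and 130 CPM in Ccr2 KO libraries 1 to 5. The mean log2 CPM of the neutrophil markers was 3.025, 0.06, 2.84, -0.88 and -1.08 there, against 0.62 to 5.37 in control libraries. Fibroblast markers summed to 717, 342, 3677, 670 and 512 CPM in Ccr2 KO libraries 1 to 5, and to 751 to 2409 CPM in control libraries. All of these Ccr2 KO sums but that of library 3 lay below every control. T and NK cell markers summed to 89.3 to 246 and 84.2 to 213 CPM. Of these 11 genes 10 had a log2 fold change below 0, with a median of -1.24, and 0 were called lower. The other was Cd4, which macrophages can express and which was called higher, at 135 ± 35.1 and 61.6 ± 12.3 CPM. Cd4 alone gave 184, 135, 127, 143 and 86.5 CPM in Ccr2 KO libraries 1 to 5. The sums of the 11 there were 190, 246, 159, 146 and 89.3 CPM, so in libraries 1, 4 and 5 they were mostly Cd4. The mean log2 CPM of the 11 was -0.12, 3.70, 2.12, -0.98 and -0.99 in these libraries, against 2.06 to 3.905 in control libraries. Dendritic cell markers summed to 18.4 to 52.9 and 25.2 to 65.7 CPM, and endothelial markers to 24.4 to 34.9 and 35.98 to 94.4 CPM. Melanoma markers summed to 38.5 to 70.1 and 37.2 to 80.8 CPM. Among melanoma genes too scarce to test, Mlana and Tyr had 0 counts in all Ccr2 KO libraries and at most 4 in controls. Tyrp1 and Dct reached 4 and 3 counts in Ccr2 KO libraries and 15 and 28 in control libraries. Of the melanoma genes Trpm1 alone was called, as higher. Lowest levels in Ccr2 KO libraries 4 and 5 were found for 7 of the 11 T and NK, 4 of the 7 neutrophil and 4 of the 11 classical monocyte genes. The share over all genes was 7.03%. Control library 5 was highest for 0, 5 and 6 of the genes in these 3 lists, against 10.8% of all genes. The part of other cells in the level of the factors was not tested.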

How the data were processed

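Per the labels' protocols, RNA of sorted F4/80+ tumour macrophages was sequenced as directional poly(A) libraries, 5 Ccr2 KO and 5 control. The submitters' processing notes name STAR and GRCm39. STAR's version and the annotation were not given in the sources used here. Deposited by the authors were whole-number read counts per gene, unstranded and for each strand. The reverse-strand column was used, which held 96.2% to 96.5% of strand-assigned counts. Reads unmapped (6.87% to 8.07%), ambiguous (1.83% to 2.10%) or in no gene (3.64% to 5.68%) were kept out, and multimapping reads were listed as 0. A combined table whose 10 columns carry no names was not used. Symbols came from a table of gene names (52083 of 55359 identifiers matched).

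The test was edgeR's (version 4.0.16, R version 4.3.3; quasi-likelihood F-test, filterByExpr with minimum count 10, TMM, Benjamini-Hochberg, threshold 0.05); the standard error is the log2 fold change over the square root of F. DESeq2 1.42.0 and limma 3.58.1 were alternatives, beside other scalings, filters, strands, a replicate block and libraries left out. The fit was tested on simulated counts. Log2 CPM used a prior count of 2. The members and lists were chosen with earlier results of these data known. Named genes are the members, Ccr2 and the 6 genes nearest the members' profile. From each related list come up to 4 genes with the smallest p and any that passed. Genes called by DESeq2 alone, Tnf, Adgre1, Mlana, Tyr, Tyrp1, Dct, F13a1, Fn1, Vcan and Hp were added after their values were seen. Figures were drawn with matplotlib 3.10.9.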

Additional observations from a re-analysis of the deposited data

Results flagged for a closer look

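Control library 5 stood far from the other 4 control libraries in 3 of the factors, by the gap to its nearest neighbour as a share of the group's whole range. The share was 0.915 for Fosl2, at 649 CPM with the next control at 300.2 CPM. It was 0.888 for Junb, at 2756 CPM with the next at 1418 CPM, and 0.950 for Jund, at 629.6 CPM with the next at 376 CPM. The critical value for 5 samples is 0.71. Of 20 groups checked (10 factors in each genotype) 3 were marked, all for control library 5. Chance marks about 1 in 20 independent groups, but these factors came from the same libraries, so the count cannot be set against that rate. Ccr2 KO libraries 4 and 5 were not marked, since they lay close to each other.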

How the results depend on the processing

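In 22 other fits, no member passed an adjusted p of 0.05 (lowest 0.0850, for Junb with limma-voom), and 0 of 10 passed 0.1 in the main comparison. Of 220 values of members, 206 kept their direction and 14 turned. Egr2 turned to -0.14 with limma-voom, to -0.039 with the replicate block, and ran from -0.073 to 0.32 with single libraries left out. Egr3 ran from -0.79 to 0.20 with single libraries left out. A single library also moved other members by over 1.5 times. Without control library 5, Fosb was -0.46, Fosl2 -0.46 and Jund -0.11; without Ccr2 KO library 3, Egr1 was -1.21 and Jund -0.54; without Ccr2 KO library 4, Egr1 was -0.39, Jun -0.41 and Jund -0.14; without Ccr2 KO library 5, Egr1 was -0.42 and Jund -0.16. Limma-voom gave -1.46 for Egr1, -1.39 for Egr3, -1.18 for Jun, -1.32 for Fosl2, -1.17 for Atf3 and -0.51 for Jund, and the replicate block gave -1.13 for Egr1 and -1.04 for Egr3. Without Ccr2 KO libraries 4 and 5, Jund was 0.079 and Egr3 0.42; with control library 5 also left out, Fosb was 0.086, Fosl2 0.067, Jund 0.27, Egr1 0.13 and Egr3 0.40. The cause was not tested. Ccr2 passed in every fit run. Over all genes, calls (higher and lower) were 125 and 78, against 460 and 360 with DESeq2, 267 and 179 with limma-voom, 30 and 25 with the replicate block, 29 and 21 without Ccr2 KO libraries 4 and 5, 28 and 13 with control library 5 also left out, 12 and 17 with close control pairs summed, and 37 to 135 and 25 to 136 with single libraries left out. The title numbers gave no shared origin, and deviations of same-numbered libraries had correlations from -0.529 to 0.344, so the block is no pairing. By root mean square difference, 5 of the 6 nearest genes were the same. The scarcest member, Egr3, rested on 24 to 463 reads per library, so its ratio and fold change are the least precise.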
